A study of Mus musculus with 23 samples.

Results

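The 9 genes described here encode the WNK kinases Wnk1, Wnk2, Wnk3 and Wnk4, the ligase subunits Klhl3 and Cul3 that control their abundance, the downstream kinases SPAK (Stk39) and OSR1 (Oxsr1), and the thiazide-sensitive sodium chloride cotransporter NCC (Slc12a3). They were taken by name, and all 9 were found among the 54393 genes of the expression tables. RNA was sequenced from hand-dissected connecting tubule and cortical collecting duct of mouse kidney, in 23 libraries. All mice carried Pax8-rtTA, TRE-LC-1 and homozygous floxed alleles of the mineralocorticoid receptor gene (MRflox/flox), which is Nr3c2. Knockout mice on a low potassium diet (KO-LK, n = 6) and knockout mice on a normal potassium diet (KO-NK, n = 6) had free access for 2 weeks to water with 5% sucrose and 2 mg/ml doxycycline, and a washout of 2 weeks with a rescue diet came after it. Control mice on a high potassium diet (CT-HK, n = 6) and control mice on a normal potassium diet (CT-NK, n = 5) drank 5% sucrose without doxycycline, and the labels do not say whether they ate the rescue diet. Each diet was given for 4 days. Pax8 drives the doxycycline-dependent Cre along the whole renal tubule, so the receptor was also open to deletion upstream of the dissected segments. Knockout and control mice differed by doxycycline, so exposure to it and deletion of the receptor cannot be told apart. No group combined knockout with high potassium or control with low potassium.

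WNK kinases respond to the chloride concentration of the cell and phosphorylate SPAK and OSR1, which in turn phosphorylate NCC and increase its activity in the apical membrane of the distal convoluted tubule. The substrate adaptor KLHL3 brings WNK kinases to the ubiquitin ligase built on CUL3, and in humans mutations of WNK1, WNK4, KLHL3 or CUL3 cause familial hyperkalemic hypertension. Low plasma potassium is known to raise NCC phosphorylation through this pathway, which is regulated largely after transcription, so RNA levels do not report its activity. The dissected segments lie just downstream of the distal convoluted tubule and depend mainly on the epithelial sodium channel. Kidney also makes a short WNK1 without the kinase domain, transcribed from an internal promoter mainly in distal convoluted and connecting tubule.

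The promoters of Wnk1, the only gene called in the main test, and of the cotransporter are printed. They show how differently the annotated starts of a broadly expressed kinase and of a segment-specific transporter read. RefSeq (GRCm38.p6) gave 300 bases for each of the 9 genes, and capitals below mark, on both strands, the GC box (GGGCGG), the CCAAT box, the TATA box (TATAAA) and a steroid receptor motif (AGAACA); no motif contains another.
Wnk1 promoter, minus strand of chr6:120038606-120038905: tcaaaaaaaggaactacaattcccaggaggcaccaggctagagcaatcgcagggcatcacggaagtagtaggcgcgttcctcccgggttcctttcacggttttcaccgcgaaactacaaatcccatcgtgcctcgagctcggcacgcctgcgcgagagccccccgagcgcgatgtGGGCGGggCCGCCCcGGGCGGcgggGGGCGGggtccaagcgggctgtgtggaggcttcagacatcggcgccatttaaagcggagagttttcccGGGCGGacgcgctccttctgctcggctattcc
Slc12a3 promoter, plus strand of chr8:94328958-94329257: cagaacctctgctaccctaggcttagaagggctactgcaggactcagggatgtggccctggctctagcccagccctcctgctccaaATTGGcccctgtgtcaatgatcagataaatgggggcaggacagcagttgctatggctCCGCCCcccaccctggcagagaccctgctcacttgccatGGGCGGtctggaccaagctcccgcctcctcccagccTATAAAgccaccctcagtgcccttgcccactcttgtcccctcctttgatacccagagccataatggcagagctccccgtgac
The Wnk1 window held 32 CG dinucleotides and 5 GC boxes, with no CCAAT box, TATA box or steroid receptor motif. This is the annotated start of the full-length gene, not the internal start of the kidney-specific form. The Slc12a3 window held 4 CG dinucleotides, 2 GC boxes, 1 CCAAT box and 1 TATA box, with no steroid receptor motif. The steroid receptor motif occurred in 1 of the 9 windows, that of Wnk3, and in 19.0% of 32851 mouse promoters of this length. Of those promoters, 35.7% held a GC box, 37.4% a CCAAT box and 13.6% a TATA box. A match or its absence in these letters is a description of this window only.

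Libraries held 16158408 to 34154475 estimated counts. Nr3c2 itself was lower in knockout than in control libraries on the count scale, with 54.3 ± 15.6 CPM in KO-LK, 58.8 ± 10.4 CPM in KO-NK, 108 ± 25.8 CPM in CT-HK and 108 ± 33.2 CPM in CT-NK (SD; CPM scaled by TMM). The log2 fold change of the 2 knockout groups over the 2 control groups was −0.94 (SE 0.15, edgeR adjusted p = 1.55e-04), but it was −0.16 (limma adjusted p = 0.439) on log2(TPM + 1). The median of all genes on that scale was 0.22, and relative to it Nr3c2 stood at −0.38, against −1.03 with TMM. Markers of the labelled segments were present in every library: the summed TPM of 9 principal cell markers was at least 2456 and that of 4 connecting tubule markers at least 2528. Proximal tubule markers summed to 49.4 to 528 TPM in the knockout libraries and reached 2960.5 TPM in CT-HK replicate 6 and 2277 TPM in CT-NK replicate 5. In all, 8 libraries held more than 2500 CPM on olfactory and vomeronasal receptor genes (3 of KO-LK, 2 of KO-NK, 1 of CT-HK and 2 of CT-NK). Replicates are numbered within groups, and the labels do not state that they were different animals, so the p-values describe variation among libraries. In these bulk samples, fewer cells of a type and less RNA per cell cannot be told apart.

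Of the 9 genes, Wnk1 was the only one called at an adjusted p under 0.05 in the main edgeR fit. It was lower in knockout libraries. In KO-NK over CT-HK, 1 of 9 was called, against 5.78% of the 25829 genes tested, and in KO over CT, the mean of both knockout groups over the mean of both control groups, 1 of 9 was called, against 10.5% of all genes. None was called in KO-NK over CT-NK, where 1.70% of all genes were called, and none in KO-LK over CT-NK, where 2.04% were. In both of these, 0 of the 9 had an unadjusted p under 0.05 and DESeq2 called 0 of the 9. In CT-HK over CT-NK and in KO-LK over KO-NK, the diet comparisons within control or knockout mice, none was called and edgeR called 0% of all genes. At an unadjusted p under 0.05, CT-HK over CT-NK held 927 genes, 3 of them among the 9 (Wnk1, Wnk4 and Klhl3), and DESeq2 called 17 genes. KO-LK over KO-NK held 732 genes at that level, 0 of them among the 9, and DESeq2 called 24 genes. The share of the 9 genes that was called in KO over CT is near that of all genes. In none of the 5 comparisons between single groups did the CPM ranges of any of the 9 genes stay apart. How often ranges stayed apart over all genes was not counted, so this does not set the 9 genes apart.

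**Figure D1:**
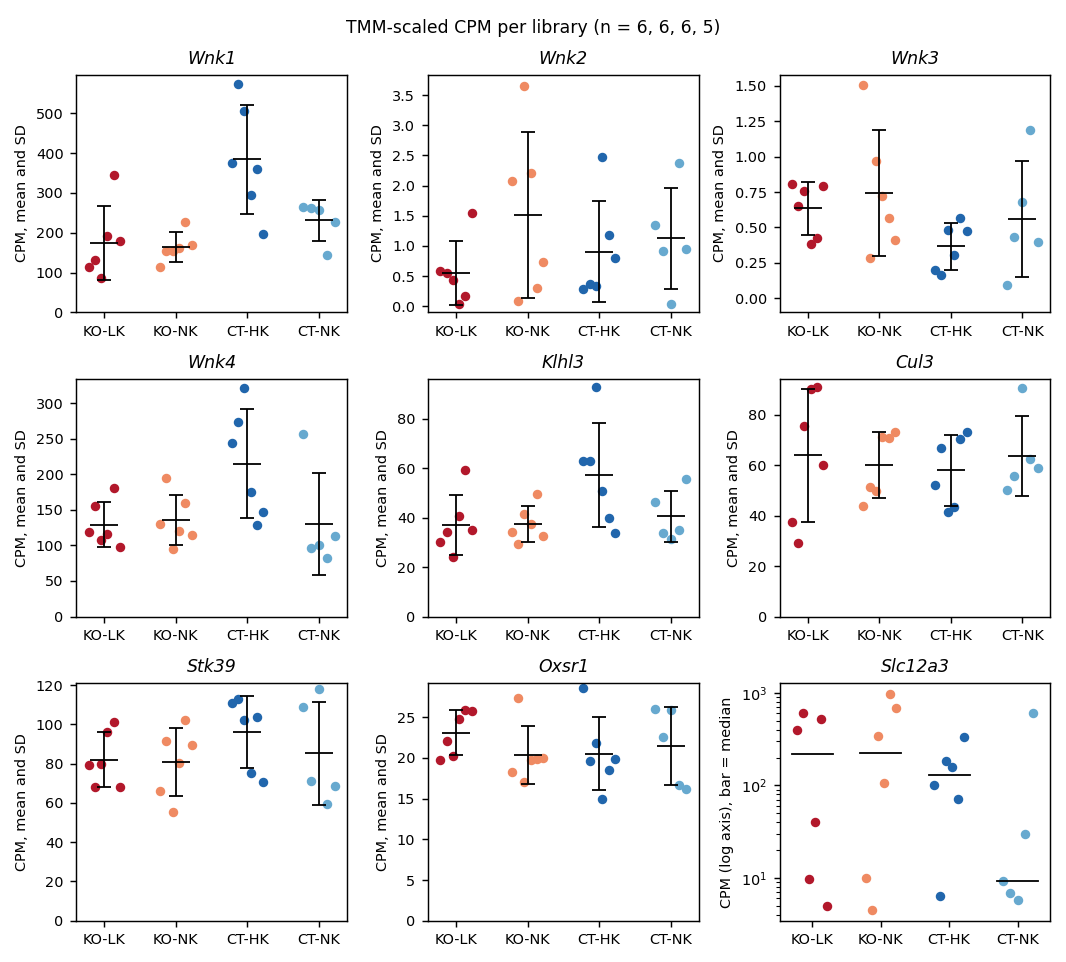
CPM, scaled by TMM, of each of the 9 genes in every library (points) of KO-LK, KO-NK, CT-HK and CT-NK, with the group mean and SD, or for Slc12a3, on a log axis, the group median. Wnk1 was highest in CT-HK, where 5 of 6 libraries lay between 294 and 573 CPM, while Slc12a3 spread from 4.51 to 981 CPM with high and low libraries in every group.

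Wnk1, the kinase that activates SPAK and OSR1 and gives rise to the kidney-specific short form (ENSMUSG00000045962, chr6:119923969-120038672, minus strand, GRCm38), ran from 87.4 to 345 CPM with a median of 156 CPM in KO-LK and from 114 to 228 CPM with a median of 159 CPM in KO-NK. In CT-HK it ran from 198 to 573 CPM with a median of 367 CPM, and in CT-NK it was 264, 262, 257, 144 and 227 CPM. The KO-NK libraries lay below the CT-HK libraries with an overlap of 1 library on each side: KO-NK replicate 5 at 228 CPM was above CT-HK replicate 6 at 198 CPM. The log2 fold change of KO-NK over CT-HK was −1.23 (SE 0.28, 95% interval −1.81 to −0.65, edgeR adjusted p = 0.00817). The same log2 fold change in KO over CT was −0.81 (SE 0.20, 95% interval −1.23 to −0.40, edgeR adjusted p = 0.00858).

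On the matched normal potassium diet the difference in Wnk1 was smaller and was not called. KO-NK over CT-NK was −0.49 (SE 0.29, 95% interval −1.09 to 0.11, edgeR adjusted p = 0.581) and KO-LK over CT-NK was −0.40 (SE 0.29, adjusted p = 0.704). High potassium alone, CT-HK over CT-NK, gave 0.74 (SE 0.29, 95% interval 0.13 to 1.34), with an unadjusted p of 0.0191 and an adjusted p of 1. Low potassium in knockout mice, KO-LK over KO-NK, gave 0.09 (SE 0.28, 95% interval −0.48 to 0.66). The comparisons that share a group are not independent of each other: both calls used the CT-HK libraries, the highest of the 4 groups, and the pair matched for diet gave no call.

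Of the 4 connecting tubule markers, S100g and Calb1 were lower in the comparisons in which Wnk1 was called. Both were also called lower in KO-NK over CT-NK and KO-LK over CT-NK, in which Wnk1 was not called. In KO-NK over CT-NK, S100g was −1.95 (edgeR adjusted p = 0.00241) and Calb1 was −1.24 (adjusted p = 0.0439). This call of Calb1 lay near the threshold and held in 23 of 39 alternatives. It was lost when any single CT-NK library was left out. In KO-LK over CT-NK, S100g was −1.60 (adjusted p = 0.0107) and Calb1 was −1.74 (adjusted p = 0.00379). S100g, which encodes the calcium-binding protein calbindin-D9k, averaged 1476 ± 746 CPM in KO-LK, 1154 ± 331 CPM in KO-NK, 7710.0 ± 3042 CPM in CT-HK and 4474 ± 923 CPM in CT-NK. Its log2 fold change was −2.74 in KO-NK over CT-HK (SE 0.34, edgeR adjusted p = 2.10e-05) and −2.17 in KO over CT (SE 0.24, adjusted p = 1.71e-06). Calb1, which encodes calbindin-D28k, gave −2.03 (SE 0.31, adjusted p = 2.43e-04) and −1.89 (SE 0.22, adjusted p = 3.96e-06) in the same comparisons. The other connecting tubule markers were not called there: Trpv5, an apical calcium channel, gave −0.17 and 0.56, and Slc8a1, a sodium calcium exchanger, gave −0.86 and −0.44. In KO-LK over CT-NK Trpv5 was called higher (1.28, SE 0.31, adjusted p = 0.028). Across the 23 libraries, centred in each group, Wnk1 correlated with S100g at r = 0.70, with Slc8a1 at 0.69, with Calb1 at 0.45 and with Trpv5 at 0.24. The summed TPM of all 4 markers ranged from 2528 to 8770.5 in KO-LK, from 3104 to 7328 in KO-NK, from 8277 to 28486 in CT-HK and from 9832 to 19964 in CT-NK, and none of the 4 was at 0 in any library. S100g made up most of this sum, with means of 5561, 4368, 19679.5 and 13347 TPM in these groups. Trpv5 went the other way, at 111, 70.6, 54.0 and 33.7 TPM. Slc8a1 averaged 49.5, 33.4, 55.9 and 30.6 TPM. With the summed markers as a covariate, an alternative added after seeing the data, Wnk1 was 0.31 in KO-NK over CT-HK (adjusted p = 0.65) and 0.38 in KO over CT (adjusted p = 0.42). With the mean of their log2 CPM it was −0.15 (adjusted p = 0.783) and −0.13 (adjusted p = 0.698). The covariate hardly overlapped between knockout and control libraries, and under the summed form Nr3c2 in KO-NK over CT-HK also came to 0.11 (adjusted p = 0.845). The part of the connecting tubule genes in the Wnk1 result was not otherwise tested.

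**Figure D2:**
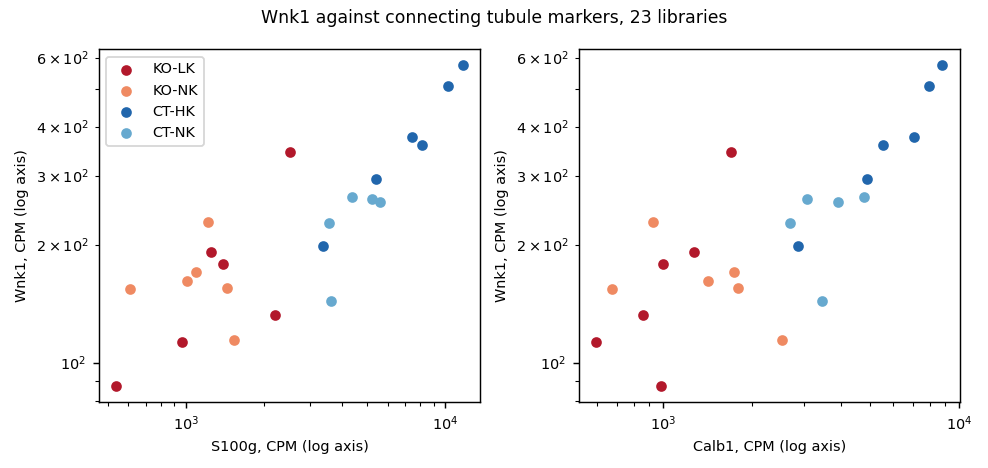
Wnk1 CPM against the CPM of the connecting tubule markers S100g (left) and Calb1 (right) in the 23 libraries, on log axes, coloured by group. Most CT-HK libraries lie at the upper right and knockout libraries at the lower left, except KO-LK replicate 5, which had 345 CPM of Wnk1 with 2509 CPM of S100g.

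The call in KO-NK over CT-HK kept its direction and its side of the threshold when each of the 23 libraries was left out in turn (log2 fold change −1.36 to −1.08). In KO over CT it also did (−0.92 to −0.72), but it was not called without the 8 libraries rich in receptor genes (−0.66, adjusted p = 0.0804) or with limma on log2(TPM + 1) (−0.44, adjusted p = 0.097). Among genes with a mean of at least 5 CPM, those whose log2 CPM, centred in each group, followed Wnk1 most closely over the 23 libraries were Cd59b (Pearson r = 0.84), Tmem52b (r = 0.84) and Pik3r1 (r = 0.83).

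Gene-level values do not separate full-length Wnk1 from the short form. A mean transcript length behind each value was obtained as the ratio of estimated count to TPM, set to bases with 379 genes that have a single annotated transcript, an analysis added after seeing the data. For Wnk1 it was 969 to 2170.0 bases with a median of 1181 bases, while its 26 annotated transcripts run from 181 to 11330 bases and 5 of them have at least 8000 bases. With these lengths, transcripts of at least 8000 bases made up a minority of the estimated Wnk1 molecules in every library. The annotated transcripts were not assigned to the full-length or the short form, so these lengths do not say which form prevailed. The highest value, 2170.0 bases, was that of CT-NK replicate 2, and the other 22 libraries were between 969 and 1515 bases. Klhl3, whose 2 transcripts are 6871 and 7149 bases, came out at 7316 to 7505 bases, slightly above both.

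Wnk4, the kinase most closely tied to NCC (chr11:101260567-101277409, plus strand), was the second most abundant of the 4 WNK genes per length. In the main edgeR fit it was not called in any comparison. It ran from 97.2 to 180.4 CPM in KO-LK with a median of 118 CPM and from 95.3 to 195 CPM in KO-NK with a median of 125 CPM. In CT-HK it ran from 129 to 321 CPM with a median of 209 CPM, and in CT-NK it was 257, 95.9, 101, 82.4 and 113 CPM. CT-NK replicate 1 stood apart from the other CT-NK libraries, and CT-HK held the 2 highest libraries of all. The log2 fold change of KO-NK over CT-HK was −0.66 (SE 0.27, 95% interval −1.21 to −0.12, unadjusted p = 0.0195, edgeR adjusted p = 0.166), and that of CT-HK over CT-NK was 0.73 (SE 0.28, unadjusted p = 0.016, adjusted p = 1). KO-NK over CT-NK was 0.06 (SE 0.28, 95% interval −0.51 to 0.64) and KO-LK over CT-NK was 0.00 (SE 0.28, 95% interval −0.58 to 0.57). On the TPM scale Wnk4 averaged 57.6 ± 10.2 in KO-LK, 61.7 ± 10.6 in KO-NK, 57.5 ± 18.2 in CT-HK and 50.7 ± 19.5 in CT-NK, and the 4 groups overlapped per length. On log2(TPM + 1) CT-HK over CT-NK was 0.19 (SE 0.22, limma adjusted p = 1) and KO-NK over CT-HK was 0.15 (SE 0.21, adjusted p = 0.576), which is −0.14 relative to the median of all genes on that scale. Its mean transcript length was 1135 to 3103 bases. The genes that followed Wnk4 most closely were Myo1c (r = 0.93), Vdr, the vitamin D receptor (r = 0.92), and Celsr1 (r = 0.91).

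Wnk2 and Wnk3 were close to the detection limit. Wnk2 (chr13:49036303-49148014, minus strand) had 1 to 79 estimated counts per library and averaged 0.556 ± 0.533 CPM in KO-LK, 1.51 ± 1.38 CPM in KO-NK, 0.907 ± 0.841 CPM in CT-HK and 1.13 ± 0.846 CPM in CT-NK. Wnk3 (chrX:151198078-151320152, plus strand) had 2 to 40 estimated counts and averaged 0.636 ± 0.188 CPM in KO-LK, 0.744 ± 0.444 CPM in KO-NK, 0.366 ± 0.165 CPM in CT-HK and 0.557 ± 0.409 CPM in CT-NK. Wnk3 is also overlapped by the antisense gene A230072E10Rik, at a mean of 1.80 CPM against 0.578 CPM for Wnk3, and the sources used here do not state whether reads were assigned by strand. At this depth a difference could be seen only if it were large: the 95% interval of Wnk2 in KO-LK over KO-NK ran from −3.11 to 0.27, and that of Wnk3 in KO-NK over CT-HK from −0.04 to 2.08.

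Summed over the 4 WNK genes, Wnk1 made up 58.7 to 84.7% of the TPM in a library, with a median of 70.9%. Wnk4 made up 15.2 to 41.2%, with a median of 28.3%. Wnk2 reached at most 0.729% and Wnk3 at most 0.135%. Per length Wnk1 stood above Wnk4 in all 23 libraries, while in CPM, without division by length, it did so in 18, the exceptions being 3 KO-LK and 2 KO-NK libraries. The TPM of Wnk1 rest on the short mean transcript length given above. In TPM, Wnk2 and Wnk3 did not differ beyond their spread in any group. Over all 23 libraries, the mean TPM of the 9 genes ran from 158 for Wnk1 through 65.5 for Slc12a3, 57.1 for Wnk4, 35.6 for Stk39, 34.9 for Cul3, 4.81 for Klhl3, 4.17 for Oxsr1 and 0.244 for Wnk2 to 0.0876 for Wnk3. The neighbours Slc12a3 and Wnk4, Stk39 and Cul3, and Klhl3 and Oxsr1 lay within the spread of each other.

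Klhl3, the adaptor that binds WNK kinases for ubiquitylation (chr13:58000228-58113592, minus strand), ran from 24 to 59.1 CPM in KO-LK with a median of 34.5 CPM and from 29.4 to 49.4 CPM in KO-NK with a median of 35.8 CPM. In CT-HK it ran from 33.8 to 92.7 CPM with a median of 56.6 CPM, and in CT-NK it was 46.5, 33.9, 31.5, 34.9 and 55.7 CPM. As with Wnk1 and Wnk4, the highest group was CT-HK, and the groups overlapped. The log2 fold change of KO-NK over CT-HK was −0.61 (SE 0.23, 95% interval −1.08 to −0.14, edgeR adjusted p = 0.126), that of CT-HK over CT-NK was 0.50 (SE 0.24, unadjusted p = 0.0479, adjusted p = 1), and that of KO over CT was −0.37 (SE 0.16, adjusted p = 0.181). KO-NK over CT-NK was −0.11 (SE 0.24, 95% interval −0.60 to 0.37). The gene most like Klhl3 over the libraries was Trpm6, the magnesium channel of the distal convoluted tubule (r = 0.89), followed by Dapk1 (r = 0.79) and Syt17 (r = 0.78).

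Cul3, the scaffold of the ligase (chr1:80264923-80340480, minus strand), averaged 63.9 ± 26.5 CPM in KO-LK, 60.1 ± 13.1 CPM in KO-NK, 58.0 ± 14.0 CPM in CT-HK and 63.5 ± 15.8 CPM in CT-NK. These means lie within 1 SD of each other in every pair, and the log2 fold changes of the 6 comparisons were between −0.13 and 0.09. Their 95% intervals lay between −0.65 and 0.59. On the TPM scale it averaged 39.3 ± 16.1 in KO-LK, 39.4 ± 7.43 in KO-NK, 24.5 ± 5.61 in CT-HK and 36.9 ± 11.1 in CT-NK, and it was not called there either. Genes most like Cul3 were Picalm (r = 0.93), C1galt1 (r = 0.92) and Ddx3x (r = 0.91).

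Stk39, which encodes SPAK (chr2:68210445-68472268, minus strand), averaged 82.0 ± 13.8 CPM in KO-LK, 80.8 ± 17.3 CPM in KO-NK, 95.8 ± 18.2 CPM in CT-HK and 85.3 ± 26.3 CPM in CT-NK. Its log2 fold change was −0.15 in KO over CT (SE 0.13, 95% interval −0.42 to 0.12, edgeR adjusted p = 0.661) and −0.25 in KO-NK over CT-HK (SE 0.18, 95% interval −0.62 to 0.13). The diet comparisons gave 0.17 in CT-HK over CT-NK and 0.02 in KO-LK over KO-NK. Genes most like Stk39 were Pde1a (r = 0.94), Twsg1 (r = 0.93) and Bag4 (r = 0.93).

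Oxsr1, which encodes OSR1 (chr9:119238432-119322427, minus strand), was called on the TPM scale and not in the main edgeR fit on counts. On the count scale it averaged 23 ± 2.77 CPM in KO-LK, 20.3 ± 3.62 CPM in KO-NK, 20.5 ± 4.53 CPM in CT-HK and 21.5 ± 4.81 CPM in CT-NK, with a log2 fold change of −0.01 in KO-NK over CT-HK (SE 0.16, 95% interval −0.35 to 0.32, edgeR adjusted p = 0.966) and 0.04 in KO over CT (SE 0.12, adjusted p = 0.934). On the TPM scale it was 4.31, 4.88, 4.63, 5.16, 5.29 and 6.41 in KO-LK, 4.48, 5.25, 4.93, 5.06, 4.95 and 4.18 in KO-NK, 4.06, 2.78, 3.24, 3.01, 2.49 and 2.58 in CT-HK, and 3.44, 4.62, 4.26, 3.57 and 2.30 in CT-NK. In TPM every KO-NK library was above every CT-HK library, while KO-LK and CT-NK overlapped. Limma on log2(TPM + 1) called Oxsr1 higher in KO-NK over CT-HK (0.54, SE 0.13, adjusted p = 0.00583), in KO-LK over CT-NK (0.41, adjusted p = 0.0465) and in KO over CT (0.47, SE 0.10, adjusted p = 5.60e-04).

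These TPM calls sit on a shift of the whole table. Limma on log2(TPM + 1) called 21.3% of all genes in KO-NK over CT-HK, 97.0% of them higher, 16.9% in KO-LK over CT-NK and 31.6% in KO over CT. The median over all genes in KO-NK over CT-HK was 0.29 on that scale, 0.21 with TMM and 0.51 with library totals alone, and in KO over CT it was 0.22, 0.09 and 0.33. Relative to that median, Oxsr1 stood at 0.25 in KO-NK over CT-HK on log2(TPM + 1) and at −0.22 with TMM, and Wnk1 stood at −1.16 and −1.44. Wnk1 relative to the median in KO over CT was −0.66 on log2(TPM + 1) and −0.90 with TMM. In these comparisons, which use CT-HK, Wnk1 was thus lower than the middle of all genes on both scales. Oxsr1 was above it on one and below it on the other. Against CT-NK alone, Wnk1 on log2(TPM + 1) was −0.06 in KO-NK and −0.02 in KO-LK, or −0.26 and −0.15 relative to the median. CT-HK over CT-NK was 0.81 on that scale. Wnk1 averaged 139.8 ± 81.4 TPM in KO-LK, 125 ± 30.7 in KO-NK, 233 ± 69.7 in CT-HK and 129.6 ± 28.3 in CT-NK. Limma on TPM also called no other member in KO over CT.

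The ratio of Stk39 to Oxsr1 TPM had a median of 7.42 in KO-LK (range 5.55 to 9.97), 7.76 in KO-NK (6.05 to 8.98), and 10.9 in CT-HK (8.04 to 13.2), and it ranged from 6.96 to 11.5 in CT-NK. SPAK RNA was more abundant per length than OSR1 RNA in every library, and the groups overlapped. Oxsr1 was most like Adpgk (r = 0.88), Pam (r = 0.87) and Grb10 (r = 0.85).

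**Figure D3:**
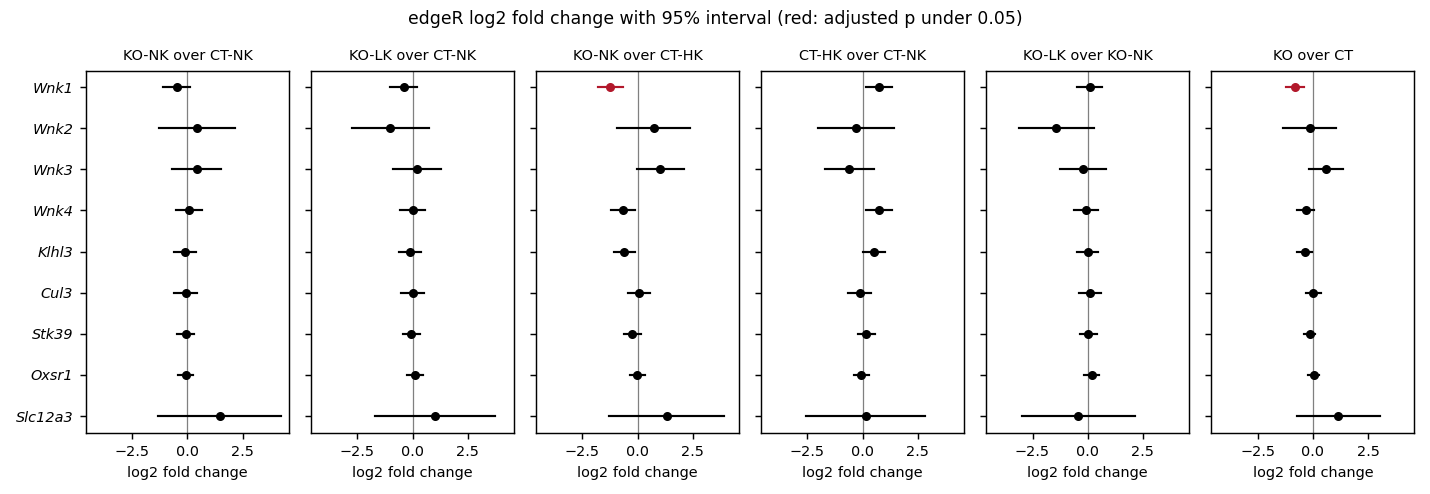
Log2 fold changes of the 9 genes (rows) in the 6 comparisons (panels) from edgeR, with 95% intervals and calls at an adjusted p under 0.05 in red. Only Wnk1 was called, at −1.23 in KO-NK over CT-HK and −0.81 in KO over CT. The intervals of Slc12a3 span several log2 units, while those of Cul3, Stk39 and Oxsr1 stay near 0.

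Slc12a3, the cotransporter on which the kinases act (chr8:94329201-94366214, plus strand), varied more between libraries of a group than between groups. In KO-LK it was 396, 600.0, 9.80, 40.4, 525 and 4.94 CPM, and in KO-NK it was 9.98, 4.51, 339, 106, 981 and 691 CPM. In CT-HK it was 100.2, 6.33, 186, 159.7, 72.1 and 334 CPM, and in CT-NK it was 9.28, 6.88, 5.84, 29.6 and 601 CPM. Every group held libraries under 10 CPM and libraries over 300 CPM, and the coefficient of variation was 105% in KO-LK, 113% in KO-NK, 79.2% in CT-HK and 202% in CT-NK.

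No comparison of Slc12a3 was called, and the intervals were wide. KO-NK over CT-NK was 1.45 (SE 1.34, 95% interval −1.33 to 4.22, edgeR adjusted p = 0.812), KO-LK over CT-NK was 1.01 (SE 1.32, 95% interval −1.72 to 3.74, adjusted p = 0.97) and KO-NK over CT-HK was 1.31 (SE 1.26, 95% interval −1.28 to 3.91, adjusted p = 0.639). CT-HK over CT-NK was 0.13 (SE 1.30), KO-LK over KO-NK was −0.44 (SE 1.24), and KO over CT was 1.16 (SE 0.91, 95% interval −0.73 to 3.05, adjusted p = 0.597). Single libraries and settings moved these values widely. Without CT-NK replicate 5, the one CT-NK library over 100 CPM, KO-NK over CT-NK was 4.79 (adjusted p = 0.17), KO-LK over CT-NK was 4.36 (adjusted p = 0.21), CT-HK over CT-NK was 3.48 (adjusted p = 1) and KO over CT was 2.83 (adjusted p = 0.0524). Without that library and CT-HK replicate 6 together, the 2 libraries richest in proximal tubule RNA and an alternative added after seeing the data, KO over CT was 3.06 (SE 0.91, adjusted p = 0.042). Without KO-NK replicate 5 it was 0.78, KO-NK over CT-NK was 0.64, KO-NK over CT-HK was 0.65 and KO-LK over KO-NK was 0.28. Without KO-LK replicate 2, KO-LK over CT-NK was 0.44 and KO-LK over KO-NK was −0.87. With the summed connecting tubule markers as a covariate the sign turned in KO over CT (−0.68), KO-NK over CT-HK (−1.45) and KO-NK over CT-NK (−0.18), and without the receptor-rich libraries it turned in CT-HK over CT-NK (−0.62), none of them called. KO-LK over CT-NK ran from 0.09 to 4.36 over the alternatives without a call.

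The 3 genes most like Slc12a3 were Ppp1r1a, which encodes protein phosphatase inhibitor-1 (r = 0.90), Sfrp1 (r = 0.90) and Abca13 (r = 0.89), none of them on the marker lists of the neighbouring segments. Of the 7 distal convoluted tubule markers, Sall3 (r = 0.76), Egf (r = 0.71) and Pvalb (r = 0.64) varied with it across the 23 libraries, centred in each group, and the other 4 gave r from 0.05 to 0.21. The 6 thick ascending limb markers gave r from 0.14 (Cldn16) to 0.65 (Ppp1r1b). The distal convoluted tubule marker Pvalb ranged from 0 to 19.6 TPM and the precursor of epidermal growth factor, Egf, from 1.00 to 214 TPM. The markers that varied least with it were Tmem52b and Emx1: Tmem52b was at 499 to 1269 TPM and Emx1 at 20.9 to 71.4 TPM in every library, and the summed TPM of the 7 markers ranged from 883 to 1362 in KO-LK, from 938 to 1435 in KO-NK, from 562 to 1164 in CT-HK and from 654 to 898 in CT-NK. Tmem52b, with a mean of 894 TPM, made up most of these sums, so they say little about the other markers. Of the 7, Pvalb was at 0 in 1 KO-LK library. In KO over CT, 2 of the 7 were called higher, Sall3 (0.97, SE 0.28, edgeR adjusted p = 0.0258) and Emx1 (0.48, SE 0.13, adjusted p = 0.0173), and so was 1 of the 6 thick ascending limb markers, Cldn16 (0.72, SE 0.18, adjusted p = 0.0108). How much of the spread of Slc12a3 follows the share of distal convoluted tubule in a dissection was not tested beyond these values. The ratio given next cannot answer this, because 4 of its 7 markers varied little with Slc12a3 (r from 0.05 to 0.21).

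The log2(TPM + 1) of Slc12a3 less the mean of those 7 markers averaged 0.92 ± 2.63 in KO-LK, 1.31 ± 2.41 in KO-NK, 0.98 ± 1.51 in CT-HK and −0.24 ± 1.94 in CT-NK. The difference was 1.55 for KO-NK over CT-NK (exact two-sided permutation p = 0.260, adjusted over the 6 comparisons 0.721), 1.17 for KO-LK over CT-NK (exact permutation p = 0.481) and 0.33 for KO-NK over CT-HK (exact permutation p = 0.788). It was 1.22 for CT-HK over CT-NK (exact permutation p = 0.260), −0.39 for KO-LK over KO-NK (exact permutation p = 0.794) and 0.69 for KO over CT (permutation p = 0.437). None of these differences was larger than the spread between libraries.

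Wnk4 did not share the range of Slc12a3. In the 8 libraries with less than 4 TPM of Slc12a3 (2 of KO-LK, 2 of KO-NK, 1 of CT-HK and 3 of CT-NK), Wnk4 was at 42.9 to 81.8 TPM, and over all 23 libraries it was at 32.9 to 81.8 TPM. Slc12a3 itself ran from 1.16 to 306 TPM. Across the libraries, centred in each group, the correlation of Slc12a3 with the other 8 members lay between −0.39 (Oxsr1) and 0.35 (Klhl3), and with Wnk4 it was −0.05. Among the other members the closest pairs were Wnk1 with Klhl3 (r = 0.75), Stk39 with Oxsr1 (r = 0.65) and Wnk1 with Stk39 (r = 0.62), while Wnk2 ran against Stk39 (r = −0.75) and Wnk3 against Wnk4 (r = −0.68). These coefficients describe libraries that share preparation and depth and carry no test.

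**Figure D4:**
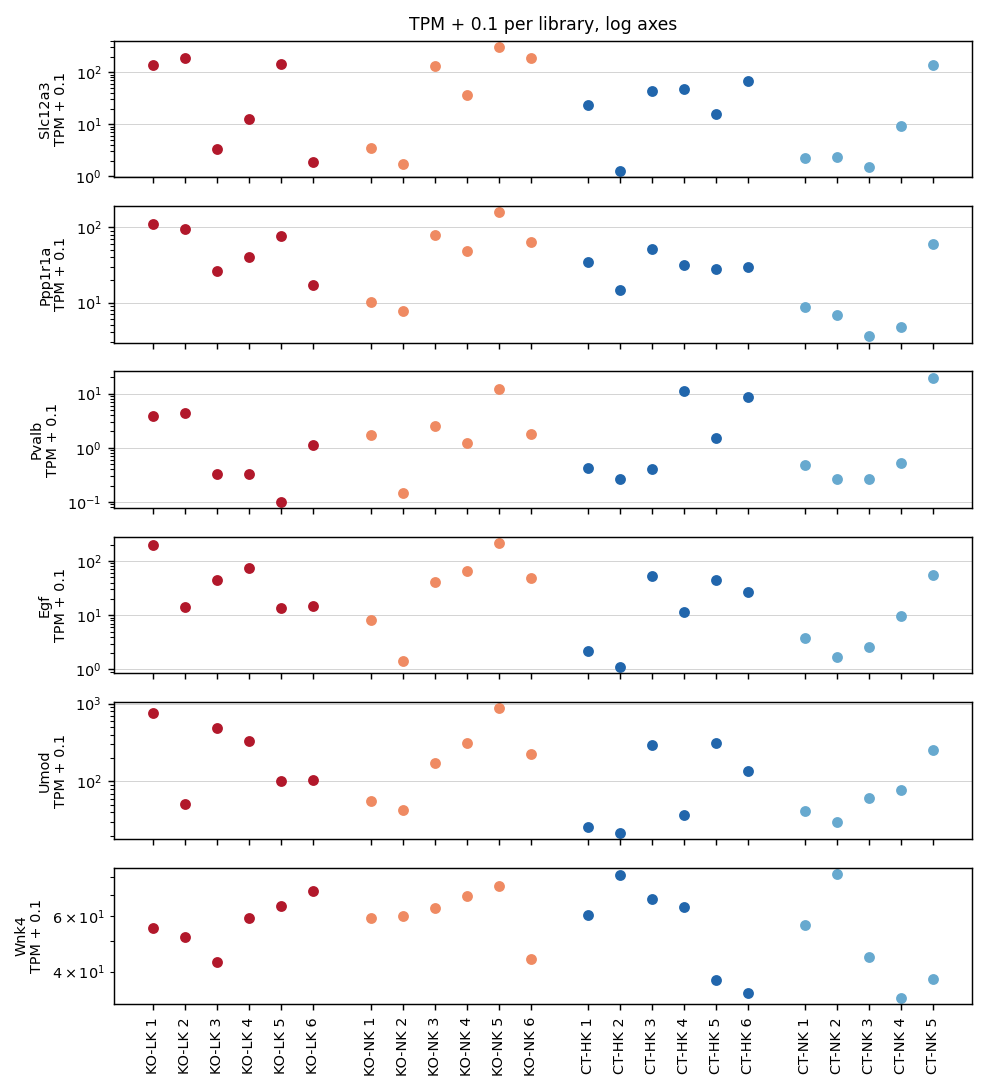
TPM + 0.1 per library, on log axes, of Slc12a3, its closest gene on the pathway list (Ppp1r1a), the distal convoluted tubule genes Pvalb and Egf, the thick ascending limb gene Umod, and Wnk4. Slc12a3 and Ppp1r1a tend to be high in the same libraries, such as CT-NK replicate 5, while Wnk4 stays between 32.9 and 81.8 TPM.

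Another 29 genes of the pathway were all tested. In KO-NK over CT-NK, 1 was higher and 1 lower, which is 6.90% of them against 1.70% of all genes, and in KO-LK over CT-NK 2 were higher and 1 lower, 10.3% against 2.04%. In KO-NK over CT-HK 3 were higher and 2 lower, 17.2% against 5.78% of all genes. In KO over CT 2 were higher and 2 lower, 13.8% against 10.5%. The share was above that of all genes in each of these 4 comparisons, on at most 5 genes. The list was chosen with earlier results of these data known, so nothing is concluded from this excess. The share of all genes also depends on the filter. With at least 5 CPM in at least 5 libraries, 3539 of 12421 genes were called in KO-NK over CT-HK and 4742 in KO over CT. The number of the 29 genes called in KO over CT became 8 without KO-NK replicate 3 and 7 without CT-HK replicate 4. In KO-NK over CT-HK the number called, 5, became 3 without CT-HK replicate 2, 3 or 5 or CT-NK replicate 1 or 4. In both diet comparisons within control or knockout mice edgeR called none. At an unadjusted p under 0.05 there were 0 in CT-HK over CT-NK, where DESeq2 also called 0, and 1 in KO-LK over KO-NK (Sgk1, −1.48), where DESeq2 called 1. The median log2 fold change of the 29 genes was −0.08 in KO-NK over CT-HK, against 0.21 over all genes, and 0.04 in KO over CT, against 0.09 over all genes.

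The called genes were led by regulators of the epithelial sodium channel that also act on NCC. Sgk1, the aldosterone-induced kinase, was at 46.1 ± 11 CPM in KO-LK, 43.9 to 272 CPM in KO-NK, 814 ± 117 CPM in CT-HK and 608 ± 86.0 CPM in CT-NK. Every knockout library, at most 272 CPM, was below every control library, at least 524 CPM. Its log2 fold change was −2.24 in KO-NK over CT-NK (SE 0.34, edgeR adjusted p = 8.03e-04), −3.72 in KO-LK over CT-NK (SE 0.36, adjusted p = 4.20e-06) and −3.19 in KO over CT (SE 0.24, adjusted p = 2.45e-08). Nedd4l, the ubiquitin ligase that SGK1 phosphorylates and inhibits, was higher: 439 ± 64.2 CPM in KO-LK, 483 ± 109 CPM in KO-NK, 209 ± 23.6 CPM in CT-HK and 223 ± 68.9 CPM in CT-NK, with 1.12 in KO-NK over CT-NK (SE 0.19, adjusted p = 0.00179) and 1.09 in KO over CT (SE 0.13, adjusted p = 3.35e-06). Both genes were called in KO over CT in all 38 alternatives that were run.

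Of the TSC22 family of WNK-binding proteins, Tsc22d1 and Tsc22d4 were called higher in some comparisons and Tsc22d2 in none (0.25 in KO over CT, edgeR adjusted p = 0.231). Tsc22d1 averaged 869 ± 137 CPM in KO-LK, 774 ± 87.1 CPM in KO-NK, 548 ± 103 CPM in CT-HK and 577 ± 56.2 CPM in CT-NK, and its log2 fold change in KO over CT was 0.54 (SE 0.10, edgeR adjusted p = 9.65e-04). It was also called in KO-LK over CT-NK (0.59, adjusted p = 0.0389) and KO-NK over CT-HK (0.50, adjusted p = 0.0383), and both calls lay near the threshold. On the matched normal potassium diet, KO-NK over CT-NK, it was not called (0.42, SE 0.15, adjusted p = 0.193). The call in KO-LK over CT-NK was lost without KO-LK replicate 3 or 4 or any CT-NK library (adjusted p up to 0.11), and the call in KO-NK over CT-HK was lost without KO-NK replicate 4, any of CT-HK replicates 2 to 6, or CT-NK replicate 1, 3, 4 or 5 (adjusted p up to 0.102). Over all 39 alternatives these calls of Tsc22d1 held in 27 and in 23. With the summed connecting tubule markers as a covariate, KO over CT was 0.55 (edgeR adjusted p = 0.111). Tsc22d4 was called in KO-NK over CT-HK alone (0.57, SE 0.14, adjusted p = 0.0187), and in KO over CT it was 0.31 (adjusted p = 0.0569). In KO over CT it was called higher in 23 of 38 alternatives, with values from 0.23 to 0.78 over all 38. The call in KO-NK over CT-HK was lost without a filter. Whether Tsc22d4 differs between these comparisons was not tested. Kcnj10, a basolateral potassium channel subunit, was lower in KO over CT (−0.60, SE 0.13, adjusted p = 0.00288) and in KO-NK over CT-HK (−0.61, SE 0.18, adjusted p = 0.0434), and it was not called in KO-NK over CT-NK (−0.55, SE 0.19, adjusted p = 0.158). On log2(TPM + 1) it was −0.16 in KO over CT (limma adjusted p = 0.376) and −0.06 in KO-NK over CT-HK (adjusted p = 0.79). Relative to the median of all genes on that scale, these values were −0.38 and −0.35. With the summed connecting tubule markers as a covariate, Kcnj10 was 0.24 (edgeR adjusted p = 0.407) and 0.42 (adjusted p = 0.358) in the same comparisons. The KO-NK over CT-HK call of Kcnj10 was also lost without KO-NK replicate 1, 2, 3 or 5, CT-HK replicate 1, 2, 3 or 5, or CT-NK replicate 1 or 4 (adjusted p up to 0.122). Over all 39 alternatives it held in 17, and the losses included library totals alone and no filter. Both calls of Kcnj10 were lost without the receptor-rich libraries.

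The 24 pathway genes that were not called in any comparison included the scaffolds Cab39 and Cab39l of SPAK and OSR1, the ligase partners Klhl2, Rbx1, Nedd8, Cand1 and Cops5, and the protein phosphatase genes. Ppp1r1a was at 1.38 in KO-NK over CT-NK (SE 0.75, 95% interval −0.16 to 2.92, adjusted p = 0.516) and 0.90 in KO over CT (SE 0.51, 95% interval −0.15 to 1.94, adjusted p = 0.347).

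**Figure D5:**
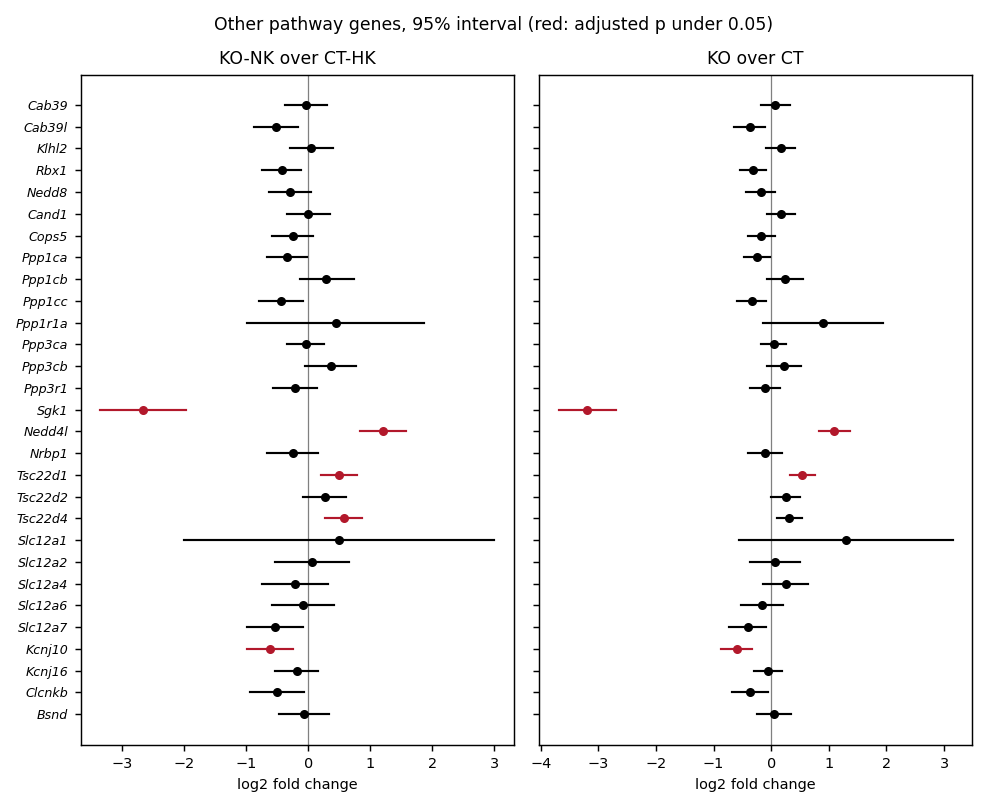
Log2 fold changes with 95% intervals of the 29 other pathway genes in KO-NK over CT-HK (left) and KO over CT (right) from edgeR, calls in red. Sgk1 stands far to the left at −2.66 and −3.19, and Nedd4l to the right at 1.21 and 1.09.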

How the data were processed

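Total RNA of 23 dissected tubule libraries was converted to cDNA with the SMART-Seq HT kit and made into libraries with Nextera XT, per the labels' protocols. The authors deposited expected counts per gene, estimated with Salmon (version given as 0.14.10, genome build GRCm38.p6, per the submitters' processing notes), and the deposited TPM values, which divide by transcript length. The strand setting and the annotation release are not given in the sources used here. Symbols were matched through GENCODE M21 for all 54393 genes. Of the count values, 35.9% are not whole, and they were rounded for testing.

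Counts were tested with edgeR 4.0.16 in R 4.3.3 (TMM, filterByExpr, 1 mean per group over all 23 libraries, quasi-likelihood F test, Benjamini-Hochberg over 25829 genes, threshold 0.05, 19 residual degrees of freedom, common biological coefficient of variation 0.56). Intervals are 95%. TPM were tested with limma 3.58.1 on log2(TPM + 1) as an alternative, and such fold changes understate those of low genes. DESeq2 1.42.0 was another alternative. The pipeline was tested on simulated counts. Estimated counts and depths of 16158408 to 34154475 per library limit the precision of rare genes. No library pair within groups had identical counts.

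Named genes were the 9 members, Nr3c2, at most 4 called pathway genes of smallest p per comparison (Kcnj10 entered through KO over CT), and the 3 genes most correlated with each member, predicted genes left out. S100g, Calb1 and other markers were named after their values were seen. The members, gene lists and tests were chosen with earlier results of these data known.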

Additional observations from a re-analysis of the deposited data

Results flagged for a closer look

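Each member was tested for a library far from the others of its group in all 4 groups, 36 tests in all, and chance flags about 1 in 20 groups. In 4 groups a library stood apart, each time above the rest. Slc12a3 was at 601 CPM in CT-NK replicate 5, while the other CT-NK libraries were at 5.84 to 29.6 CPM. Wnk4 was at 257 CPM in CT-NK replicate 1, while the other CT-NK libraries were at 82.4 to 113 CPM. Oxsr1 was at 27.3 CPM in KO-NK replicate 2, while the other KO-NK libraries were at 17.0 to 20 CPM. Wnk2 was at 1.55 CPM in KO-LK replicate 6, while the other KO-LK libraries were at 0.0381 to 0.582 CPM. CT-NK replicate 5 was also the CT-NK library with the highest proximal tubule markers, at 2277 TPM, and the part of that in its Slc12a3 level was not tested.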

How the results depend on the processing

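In all, 43 alternative settings were run, at most 39 for any gene and comparison and fewer for Slc12a3 relative to its segment's markers. The 3 with connecting tubule markers as a covariate or with a pair of control libraries (CT-NK replicate 5, CT-HK replicate 6) left out were added after seeing the data. Of 2085 values of single members under alternatives, 2068 kept their side of the threshold, 5 lost it, 8 gained it and 4 turned round, and 230 uncalled values changed sign without a call. The number of members called in KO-NK over CT-HK was 1, and it was 2 with DESeq2 and with the filter of 5 CPM in 5 libraries, 2 with limma on log2(TPM + 1) or log2(TPM + 0.1), and 0 with either connecting tubule covariate. In KO-LK over CT-NK it was 0, and 1 with limma on either TPM scale. In KO over CT it was 1, and it was 2 with library totals alone and without the pair of control libraries, and 0 without the receptor-rich libraries and with either covariate. Leaving out single libraries changed none of these 3 numbers. With DESeq2 or the stricter filter in KO-NK over CT-HK, a member besides Wnk1 was thus called on counts. The same held with library totals alone in KO over CT. Members uncalled in the main fit were therefore not uncalled under every setting. The values that turned round were Oxsr1 in KO-NK over CT-HK (0.54 and 0.66 with limma on log2(TPM + 1) and log2(TPM + 0.1)) and, with the summed covariate, Wnk1 in KO-NK over CT-HK (0.31) and KO over CT (0.38), Nr3c2 in KO-NK over CT-HK (0.11), Kcnj10 in KO-NK over CT-HK (0.42) and KO over CT (0.24), and Calb1 in KO-NK over CT-NK (0.05). With the mean covariate Kcnj10 in KO-NK over CT-HK was 0.11. The cause was not tested. All 162 values of Slc12a3 relative to its segment's markers stayed uncalled, and 8 changed sign.

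Same-numbered libraries of different groups did not regularly deviate together (33 pairs, r from −0.70 to 0.71, 10 over 0.1 and 21 under 0). Pairs with different numbers were not computed as a reference, so these values cannot decide whether the numbers are a pairing. With the replicate block, Wnk1 was −1.23 (edgeR adjusted p = 0.0144) in KO-NK over CT-HK and −0.83 (adjusted p = 0.0169) in KO over CT, and the number of members called was the same in all 6 comparisons, 1, 1 and 0 in the other 4.

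Scaling moved the totals: in KO-NK over CT-HK, 1494 genes were called (42.6% higher), against 3531 with library totals alone (84.0% higher), 5505 with limma on log2(TPM + 1) (97.0% higher), 2656 with DESeq2 (34.3% higher), 3539 with the stricter filter and 799 without a filter. In KO over CT, 2721 were called (44.4% higher), against 5973 (84.7% higher) with library totals alone, 8161 (95.9% higher) with limma on log2(TPM + 1) and 1692 without a filter. The number of other pathway genes called ranged from 2 to 12 in KO-NK over CT-HK and from 3 to 19 in KO over CT. Depth limits Wnk2 and Wnk3, with 1 to 79 counts and 2 to 40 counts per library.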
